A study of Mus musculus with 7 samples.

Results

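The LC3 conjugation machinery is described here through 10 genes of the 48795 that the count table lists: Atg16l1, Atg5, Atg12, Atg7, Atg3, Atg10, Atg4b, Map1lc3b, Gabarap and Gabarapl2. They were taken by their GENCODE vM21 symbols, and all 10 passed the filter on low counts. The list follows the pathway, but its members were chosen by name, with Atg16l1 singled out, when their log2 fold changes between MIZ1KO and Control in these libraries were already known. Values of that comparison are therefore a description of the 10 genes and support nothing.

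Expression was measured by bulk RNA sequencing of germinal centre B cells of the light zone, sorted from mouse spleen 10 days after sheep red blood cells were given intravenously to both groups. The genotype label is MIZ1KO for 3 libraries, whose names carry the tag MizFF, and Control for 4 libraries, whose names carry the tag eYFP. MIZ1 is a zinc finger transcription factor that works as a partner of MYC or on its own, and the comparison asks what its loss changes in these cells. The sources used here do not give the strain, age and sex of the mice, the Cre line or the share of cells with a deletion. No label says that each library came from its own mouse, so the spread between libraries may be in part technical. In bulk RNA, a lower value can come from fewer cells of a type or from less RNA per cell, and these cannot be told apart.

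Autophagy encloses cytoplasm in a double membrane, and proteins of the ATG8 family, LC3 and the GABARAPs, are bound to a lipid of that membrane. The protease ATG4B trims each ATG8 protein to end in a glycine, the E1 enzyme ATG7 activates it, and the E2 enzyme ATG3 passes it to phosphatidylethanolamine. A parallel reaction, with ATG7 and the E2 enzyme ATG10, joins ATG12 to ATG5, and ATG16L1 binds this conjugate and places it on the membrane, where it acts as the E3. In B cells this pathway is known for its part in the survival of memory B cells and plasma cells, and ATG16L1 also serves the lipidation of LC3 on single membranes such as phagosomes and endosomes.

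The glycine that is joined to the lipid can be read in the coding ends of the 3 ATG8 genes, which are shown because trimming by ATG4B exposes this glycine for ATG7 and ATG3. Each line runs 5′ to 3′ to the stop codon in GENCODE vM21 and has the last glycine codon in capitals, which is followed by 5 further codons in Map1lc3b and by 1 codon in Gabarap and Gabarapl2.
Map1lc3b: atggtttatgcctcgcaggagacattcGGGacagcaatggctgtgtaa
Gabarap: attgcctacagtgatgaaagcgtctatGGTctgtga
Gabarapl2: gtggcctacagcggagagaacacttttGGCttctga
The codons after the glycine are the part that ATG4 removes.

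Atg16l1 was lower in all 3 MIZ1KO libraries than in all 4 Control libraries, and it was the only one of the 10 genes called in this comparison. In CPM, counts per 1000000, scaled to a common library size that includes ribosomal RNA, it measured 8.06, 6.79 and 8.53 in MIZ1KO replicates 1 to 3. The Control replicates 1 to 4 measured 16.8, 20.7, 31.1 and 13.3 CPM. The MIZ1KO libraries lay close together, while Control replicate 3 stood above the other Control libraries and Control replicate 4 was the lowest of them. The mean ± SD was 7.79 ± 0.896 CPM for MIZ1KO (n = 3) and 20.5 ± 7.70 CPM for Control (n = 4), and the log2 fold change -1.39 ± 0.34 (SE) with a 95% interval from -2.11 to -0.67. These values rested on 53 to 75 counts per MIZ1KO library and 128 to 237 counts per Control library. On the log2 values that the authors deposited, MIZ1KO ran from 6.25 to 6.42 and Control from 6.73 to 7.45, again without overlap.

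A gene was called when its adjusted p was under 0.05 in the quasi-likelihood test of edgeR over all genes tested. Of the 10 members, 1 was called, Atg16l1, which fell, and 9 were not. Over all 11618 genes tested, 5.96% were called, 4.05% were called lower in MIZ1KO, and among protein-coding genes, the class of all 10 members, 2.06% were called lower. Since the comparison was in view when the genes were chosen, nothing is read from the count. The call of Atg16l1 ended when any of 5 of the 7 libraries was left out, while its log2 fold change stayed between -1.51 and -1.07: it held without Control replicate 1 or Control replicate 4, and ended without MIZ1KO replicate 1, 2 or 3 or without Control replicate 2 or 3. It also ended in limma-voom, where the log2 fold change was -1.31.

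**Figure D1:**
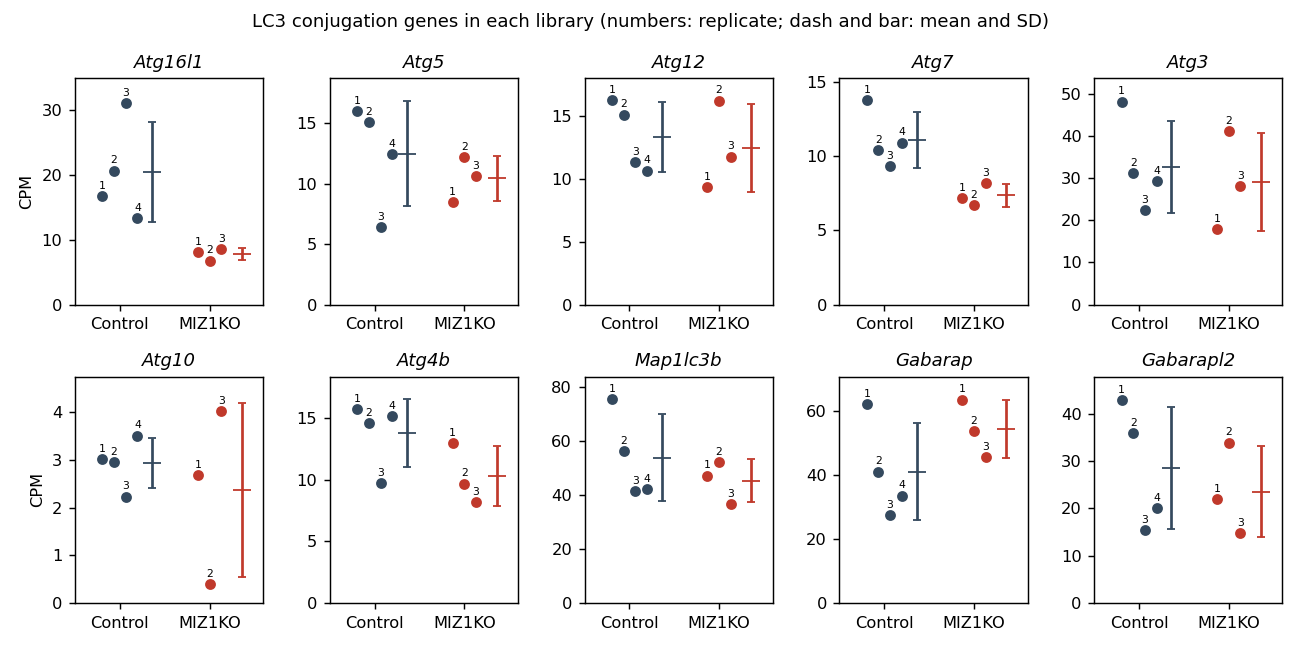
CPM of the 10 conjugation genes in each library, Control in dark grey and MIZ1KO in red, with replicate numbers above the points and the group mean and SD as a dash and bar. Atg16l1 and Atg7 are the panels in which the groups do not overlap; Atg16l1 reaches 31.1 CPM in Control replicate 3 and stays at 8.53 CPM or below in MIZ1KO.

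Atg16l1 (ENSMUSG00000026289) lies on chromosome 1 of GRCm38 from 87755870 to 87792428 on the plus strand. No exon of another gene overlaps its exons, and the small Cajal body RNA genes Scarna6 and Gm25395 lie inside its introns, with at most 1 and 2 counts in any library. GENCODE vM21 lists 11 transcript models for the gene, 4 of them protein-coding and 7 of the class with retained introns. RNA classes that are mostly unspliced or nuclear moved with the groups. TEC models, a GENCODE class of regions still to be experimentally tested, took 0.544% to 0.923% of MIZ1KO counts outside ribosomal RNA and 1.02% to 2.58% of Control counts. Malat1, a long RNA kept in the nucleus, took 0.256% to 0.490% and 0.687% to 1.52%. Neither overlapped (exact permutation p = 0.0571 for each, two-sided, adjusted p = 0.160 over 14 library quantities). Control replicate 3 had the highest TEC share as well as the highest Atg16l1 level. Control replicate 4, with the second highest TEC share, 1.95%, had the lowest Atg16l1 level of its group. With the log2 TEC share as a covariate, the log2 fold change of Atg16l1 was -0.70 ± 0.57 (SE) and the gene was not called. As the TEC share did not overlap between the groups, it and the genotype cannot be told apart in that fit.

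**Figure D2:**
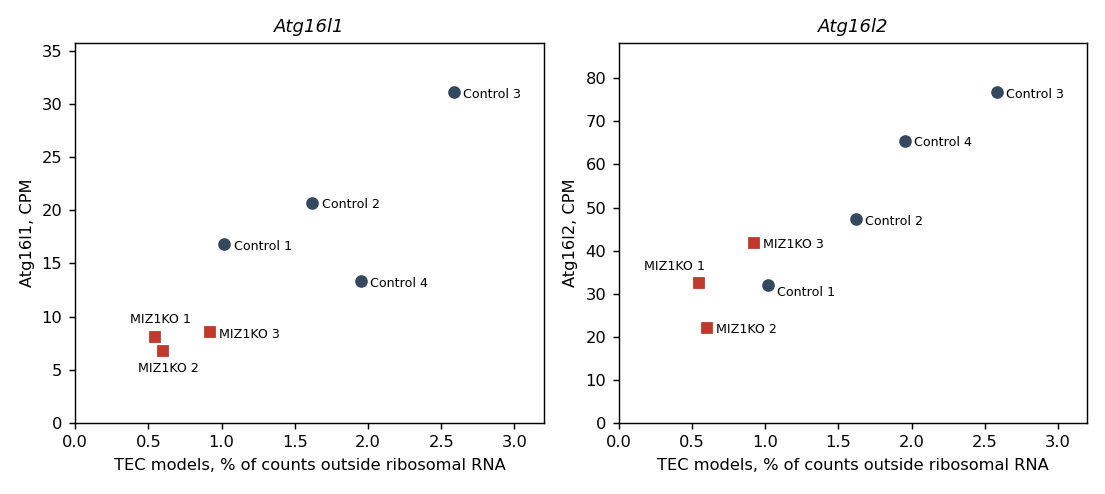
CPM of Atg16l1 (left) and of its relative Atg16l2 (right) against the TEC share of the counts outside ribosomal RNA, 1 point per library, Control as dark circles and MIZ1KO as red squares. The MIZ1KO libraries lie at TEC shares of 0.544% to 0.923% and the Control libraries at 1.02% to 2.58%; for Atg16l2, Control replicate 1 lies at 32.0 CPM among the MIZ1KO libraries.

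The partners of ATG16L1 were not called. Atg5, which is joined to ATG12 and binds ATG16L1, measured 8.49, 12.2 and 10.6 CPM in MIZ1KO and 16.0, 15.1, 6.43 and 12.4 CPM in Control. Its groups overlapped, with Control replicate 3 the lowest of all 7 libraries, and its log2 fold change was -0.25 ± 0.35 (SE, 95% interval -0.98 to 0.48). Atg12, the ubiquitin-like protein of the complex, lies on chromosome 18 of GRCm38 from 46730144 to 46741580. It measured 9.35, 16.2 and 11.7 CPM against 16.3, 15.1, 11.3 and 10.6 CPM, a log2 fold change of -0.08 ± 0.32 (SE, 95% interval -0.74 to 0.58). The highest MIZ1KO library for Atg12, replicate 2, lay just below the highest Control library. The intervals of Atg5 and Atg12 leave room for changes of either sign.

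Ratios of Atg16l1 to its partners Atg5 and Atg12 within each library are given as a description. Atg16l1 was singled out with its lower values in MIZ1KO known, and neither partner was called. Lower ratios in MIZ1KO were therefore largely built in and are no further support. Levels per length, counts per kilobase of exon scaled to 1000000 over protein-coding genes, gave 0.232, 0.136 and 0.196 units of Atg16l1 per unit of Atg5 in MIZ1KO replicates 1 to 3. The Control replicates gave 0.256, 0.335, 1.18 and 0.262. All 3 MIZ1KO ratios were below the lowest Control ratio, by a narrow margin in replicate 1, and Control replicate 3 stood far above the other 6 libraries. Per unit of Atg12, Atg16l1 ran from 0.336 to 0.690 in MIZ1KO and from 0.827 to 2.21 in Control. The ratio of Atg5 to Atg12 overlapped, at 2.47 to 2.98 and 1.87 to 3.84. Per unit of its relative Atg16l2, Atg16l1 overlapped as well, at 0.179 to 0.271 in MIZ1KO and 0.179 to 0.461 in Control.

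Among the enzymes, Atg7 was the second gene without overlap. It encodes the E1 of both reactions and measured 7.20, 6.69 and 8.20 CPM in MIZ1KO against 13.8, 10.4, 9.32 and 10.9 CPM in Control. The distance between the groups was small, from 8.20 CPM in the highest MIZ1KO library to 9.32 CPM in the lowest Control library, and the log2 fold change of -0.61 ± 0.34 (SE, 95% interval -1.31 to 0.10) was not called. Over all genes tested, 10.8% had every MIZ1KO library below every Control library, and among protein-coding genes 7.93%, against 2 of the 10 members. No member had every MIZ1KO library above every Control library, a pattern that 8.74% of all genes showed.

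Atg3, the E2 of the ATG8 reaction, measured 17.9, 41.1 and 28.2 CPM in MIZ1KO and 48.1, 31.1, 22.4 and 29.3 CPM in Control. It varied as much within a group as between them, with a log2 fold change of -0.17 ± 0.30 (95% interval -0.80 to 0.46). Atg10, the E2 of the ATG12 reaction, was the least counted member, at 4 to 25 counts in MIZ1KO and 17 to 35 in Control. Its CPM of 2.69, 0.400 and 4.02 in MIZ1KO spanned the 2.23 to 3.51 of Control, and at this depth a log2 fold change anywhere from -1.72 to 0.82 lay in the 95% interval. Atg4b, the protease that trims ATG8 proteins and also frees them from the lipid, measured 13.0, 9.69 and 8.20 CPM against 15.7, 14.6, 9.71 and 15.1 CPM. Here MIZ1KO replicate 1 lay above Control replicate 3 and the other MIZ1KO libraries below every Control library, by a narrow margin in replicate 2, and the log2 fold change was -0.41 ± 0.32.

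Among the ATG8 genes, Gabarap was the only member with a positive log2 fold change, 0.41 ± 0.26 (SE, 95% interval -0.13 to 0.95). It measured 63.6, 53.7 and 45.5 CPM in MIZ1KO and 62.3, 41.1, 27.4 and 33.6 CPM in Control, where replicate 1 alone reached the MIZ1KO range. Map1lc3b, which encodes LC3B, measured 47.2, 52.4 and 36.5 CPM against 75.7, 56.2, 41.6 and 42.2 CPM, a log2 fold change of -0.24 ± 0.24. Gabarapl2, which encodes GATE-16, measured 21.9, 34.0 and 14.8 CPM against 42.9, 35.9, 15.4 and 20.1 CPM, a log2 fold change of -0.25 ± 0.34. Control replicate 1 was the highest Control library for all 3 genes and Control replicate 3 the lowest.

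The makeup of the ATG8 pool is given as shares, since none of its genes was called. Of the summed level per length of the 3 genes, Map1lc3b took 12.5%, 13.7% and 13.5% in MIZ1KO and 16.2%, 16.5%, 20.5% and 17.3% in Control. Gabarap took 68.7%, 57.4% and 68.8% in MIZ1KO and 54.2%, 49.3%, 55.1% and 56.1% in Control. Neither share overlapped between the groups, with 56.1% and 57.4% the closest pair for Gabarap, while that of Gabarapl2 did, at 17.7% to 28.8% and 24.5% to 34.2%. In CPM the groups overlapped for each of the 3 genes. Of all genes tested, 10.8% had every MIZ1KO library below every Control library in CPM, and 8.74% the reverse. How often shares of other genes separate the groups was not counted, so nothing is read from the separation. Shares of a common sum are not independent of each other. Estimated counts of Map1lc3b were not whole numbers in any library, nor those of Gabarapl2 in 3 libraries. For Map1lc3b, 58 exonic bases overlap an exon of Zcchc14 on the other strand, and the whole gene lies within the model Gm20388, which held up to 74.4 counts in a library.

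**Figure D3:**
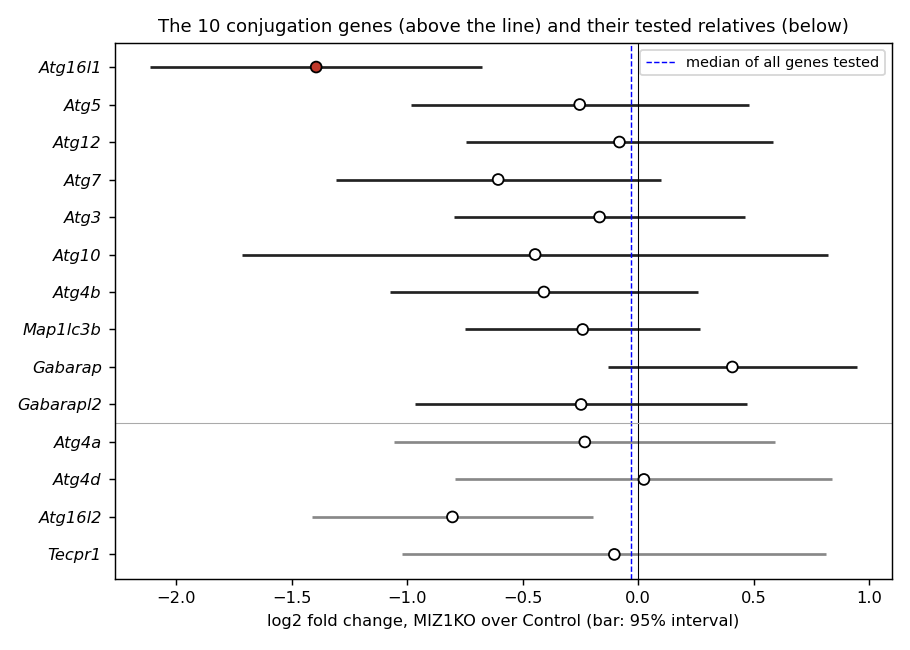
Log2 fold change of MIZ1KO over Control with its 95% interval for the 10 conjugation genes and, below the line, the 4 tested relatives; the filled point was called and the dashed line is the median of all genes tested, -0.03. Only the intervals of Atg16l1 and Atg16l2 lie wholly below 0, and Gabarap has the highest value, 0.41.

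As a list, the 10 members had 9 log2 fold changes below 0 and 1 above, and their median was -0.25. The median over all genes tested was -0.03 and that over protein-coding genes tested 0.03. Directions were not equally stable: Atg16l1, Atg5, Atg7, Atg4b and Map1lc3b kept theirs in all 19 alternatives, and Atg12, Atg3, Atg10, Gabarap and Gabarapl2 turned in 1 or 2 of them. With the TEC share as a covariate Gabarap turned to -0.64, so its sign rests on how that share is treated. Map1lc3b and Gabarapl2 stayed below 0 and reached -1.12 and -1.69 (adjusted p = 0.067 and 0.051, edgeR). No member was called in that fit.

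Levels can be compared between genes only per length. In Control, Gabarap stood at 156 ± 24.4 units per 1000000 (SD, n = 4), above Gabarapl2 at 84.3 ± 22.4 and Atg3 at 72.9 ± 9.79. Map1lc3b followed at 50.6 ± 5.20 and Atg5 at 37.1 ± 7.97. Atg16l1 at 16.3 ± 9.36 led a lower set with Atg10 at 12.4 ± 2.67, Atg12 at 12.4 ± 1.18, Atg7 at 11.5 ± 1.20 and Atg4b between them. Gabarap and Gabarapl2 had separate Control ranges, as had Atg3 and Map1lc3b, and Map1lc3b and Atg5. Gabarapl2 and Atg3 overlapped, and so did Atg5 and Atg16l1 and each pair of neighbours below them, whose order does not hold beyond their spread. In MIZ1KO, Atg16l1 stood at 5.32 ± 0.889 (SD, n = 3), the lowest of the 10, with Atg7 next at 6.95 ± 1.06.

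**Figure D4:**
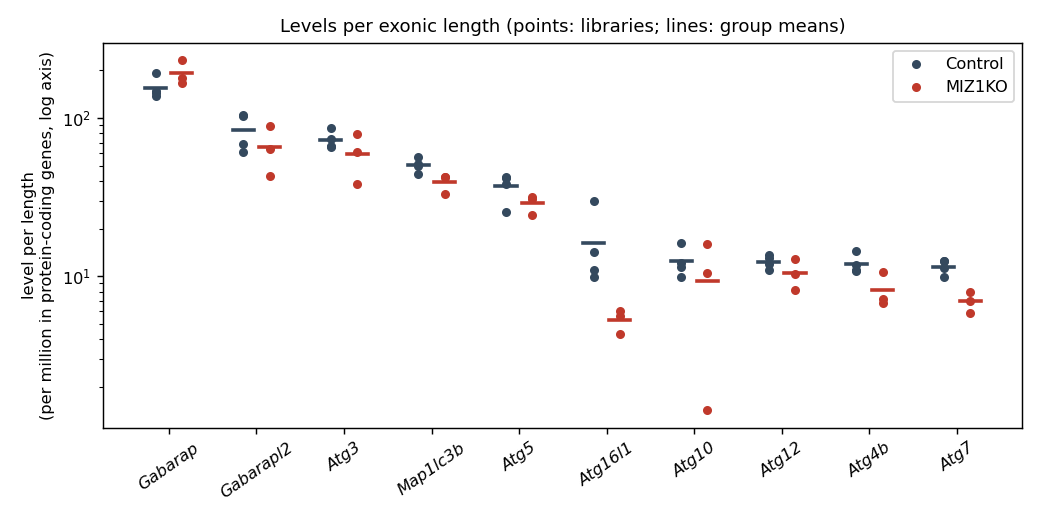
Level per exonic length of each member on a log axis, ordered by the Control mean, with 1 point per library and a line at the group mean. Gabarap has the highest mean, 156 in Control. The mean of Atg16l1 is 16.3 in Control and 5.32 in MIZ1KO, the lowest member mean there by this length. The point of Atg10 in MIZ1KO replicate 2 lies lower, at 1.42.

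The place of Atg16l1 in this order depends on the length used, because its 11 models join to 9628 exonic bases while its longest transcript has 3751. By the longest transcript its mean Control level was 30.4 ± 17.7 (SD, n = 4), above the 26.9 ± 5.67 of Atg5. Control replicates 1 to 4 gave 18.3, 26.5, 56.5 and 20.4 for Atg16l1 and 27.8, 30.9, 18.6 and 30.3 for Atg5. Atg16l1 was thus above Atg5 in Control replicate 3 alone. Its mean MIZ1KO level was 10.1 ± 1.72 (SD, n = 3), above Atg7 at 9.14 ± 1.42 and Atg10 at 7.43 ± 5.86, with overlapping ranges. The ATG8 genes and Atg3 kept the first 4 places by either length.

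Most other members, all of the protein-coding class, lie as follows in GRCm38. Atg5 lies on chromosome 10 from 44268358 to 44364291, Atg7 on chromosome 6 from 114643097 to 114860614, and Atg3 on chromosome 16 from 45158785 to 45188538. Atg10 lies on chromosome 13 from 90935356 to 91223968 and Atg4b on chromosome 1 from 93751500 to 93790610. The span of Atg4b shares 3365 bases with Thap4 on the other strand, without overlap of exons. Map1lc3b lies on chromosome 8 from 121590361 to 121598760, Gabarapl2 on the same chromosome from 111940703 to 111953612, and Gabarap on chromosome 11 from 69991143 to 69994951. Only Atg4b shares the chromosome of Atg16l1, and none lies on chromosome 4, which carries Zbtb17, the gene of MIZ1.

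Start regions of 300 bases, 250 before and 50 after a RefSeq start site (GRCm38.p6), were matched for 8 of the 10 members, not for Atg16l1 and Atg12. For 6 of them the start site lay within 227 bases of the start of the GENCODE gene, but that of Atg4b lay 3405 bases and that of Atg7 27999 bases inside the gene, so for these the region is at an internal start. The letters CACGTG, the E-box bound by MYC with MAX and by many other factors, occurred in the regions of Atg5 and Atg3 and in the internal one of Atg7, 3 of 8, and in 7.15% of all 32851 regions in the table. CACGTG reads the same on both strands. The letters ATCGAT, one of the words reported for MIZ1, occurred in 0 of the 8 and in 0.925% of all regions. The 4 sites are shown so that the matches can be read, with the motif in capitals and 12 bases on each side.
Atg5, chr10:44268313-44268342, plus strand: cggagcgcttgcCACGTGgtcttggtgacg
Atg7, internal start, chr6:114670952-114670981, plus strand: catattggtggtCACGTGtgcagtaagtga
Atg3, chr16:45158723-45158752, plus strand: gcctccttttgtCACGTGtcctgggagagt
Atg3, chr16:45158746-45158775, plus strand: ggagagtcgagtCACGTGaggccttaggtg
None of these 3 genes was called, with log2 fold changes of -0.25 for Atg5, -0.61 for Atg7 and -0.17 for Atg3. A match of letters is no evidence of binding.

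Relatives of the members were measured beside them. Of 7 listed, 4 passed the filter and none was called. Atg16l2, a paralog of Atg16l1 whose protein binds ATG5 but is not known to replace it in autophagy, came nearest: it measured 32.4, 22.1 and 41.8 CPM in MIZ1KO and 32.0, 47.3, 76.8 and 65.6 CPM in Control. MIZ1KO replicate 3 and Control replicate 1 crossed between the groups, and the log2 fold change was -0.80 ± 0.29 with an adjusted p of 0.0983 (edgeR). Without Control replicate 1 it was called, with an adjusted p of 0.0171 (edgeR; 0.0171 to 0.549 over its 19 alternatives), and with the TEC share as a covariate its log2 fold change turned to 0.49. Its 4 libraries with the highest level were not the same as those of Atg16l1, since MIZ1KO replicate 3 was among them.

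Atg4a, Atg4d and Tecpr1, 2 further ATG4 proteases and a protein that can take the place of ATG16L1 beside ATG12 and ATG5 on lysosomes, had log2 fold changes of -0.23 ± 0.39, 0.02 ± 0.39 and -0.10 ± 0.44 (SE). Their adjusted p-values ran from 0.768 to 0.978 (edgeR). The ATG8 genes Map1lc3a and Gabarapl1 and the protease gene Atg4c were too thinly counted for the test, with at most 20 counts in any library.

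Genes of the other steps of autophagy were listed by role. Together with the relatives, none of the 49 tested of 54 listed was called, against 5.96% of all genes. All are protein-coding, and of the 9812 protein-coding genes tested 204 were called higher and 202 lower. By edgeR, 7 of the 49 had an unadjusted p under 0.05, which 24.6% of all genes and 21.2% of protein-coding genes had, and DESeq2 and limma-voom also called 0. Their median log2 fold change was -0.07, with 22 above 0 and 27 below, and 3 had every MIZ1KO library below every Control library (10.8% of all genes) and 2 the reverse (8.74%). In the ULK kinase complex, which starts autophagosome formation, 3 of 5 lay above 0, with Ulk2 at a log2 fold change of 0.41 ± 0.29 (adjusted p = 0.414) and Rb1cc1, which encodes FIP200, at -0.42 ± 0.23 (adjusted p = 0.270; both edgeR).

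In the PI3K complexes, which make the lipid signal that recruits WIPI2 and with it ATG16L1, 6 of 8 lay below 0. Uvrag had a log2 fold change of -0.60 ± 0.20 and Rubcn, which encodes the inhibitor Rubicon, of 0.61 ± 0.21 (adjusted p = 0.0804 and 0.0901, edgeR). Both fell short of the call, and their log2 fold changes had opposite signs. Of the genes of membrane supply, Vmp1, a lipid scramblase of the endoplasmic reticulum, measured 30.6, 37.3 and 20.6 CPM in MIZ1KO and 43.4 to 56.8 CPM in Control, without overlap. Its log2 fold change was -0.69 ± 0.24 (adjusted p = 0.0862, edgeR). Atg2a, a lipid transfer protein, had a log2 fold change of 0.63 ± 0.34 (by edgeR, adjusted p = 0.268).

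Among the cargo receptors, Sqstm1, which encodes p62 and is itself broken down by autophagy as a protein, measured 40.2, 45.0 and 23.3 CPM in MIZ1KO and 35.3, 13.2, 15.5 and 20.4 CPM in Control. Control replicate 1 lay within the MIZ1KO range, and the log2 fold change was 0.78 ± 0.31 (by edgeR, adjusted p = 0.132). Without Control replicate 1 it was 1.14 with an adjusted p of 0.0162 (edgeR; 0.0162 to 0.644 over its 19 alternatives), and with the TEC share as a covariate it turned to -0.46. Ccpg1, a receptor for the endoplasmic reticulum, had a log2 fold change of -0.73 ± 0.45 (by edgeR, adjusted p = 0.327). For fusion with lysosomes, the autophagosomal SNARE gene Stx17 measured 5.70, 5.10 and 6.11 CPM against 9.97, 7.16, 11.4 and 16.1 CPM, without overlap. Its log2 fold change was -1.02 ± 0.38 (by edgeR, adjusted p = 0.105), second in size to Atg16l1 among all autophagy genes listed here. Plekhm1, an adaptor of late endosomes, had a log2 fold change of 0.39 ± 0.19 (by edgeR, adjusted p = 0.212).

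**Figure D5:**
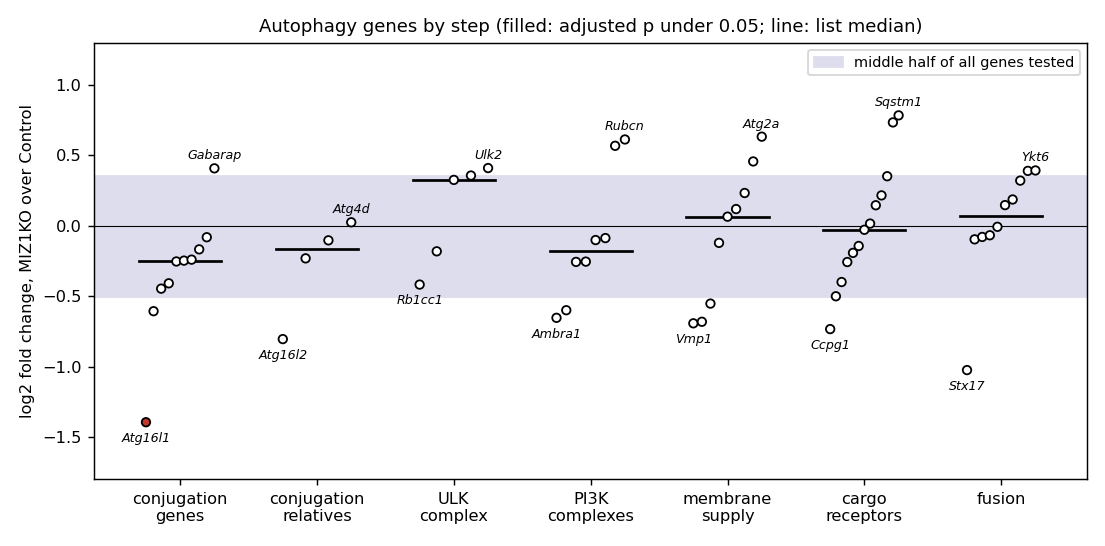
Log2 fold change of each tested autophagy gene by step of the pathway, with list medians as lines, called genes filled, and the middle 50% of all genes tested shaded. Atg16l1 at -1.39 is the only filled point, and the lists lie on both sides of 0.

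The 5 genes whose pattern over the 7 libraries was most like that of Atg16l1 were Relch, Trim39, Orc4, Gdap10 and Cspp1. Likeness was the root mean square difference of log2 CPM after centring each gene on its own mean, among 6656 genes with at least 10 CPM on average. It was 0.18 for Relch, 0.21 for Trim39, 0.23 for Orc4, 0.24 for the lincRNA Gdap10 and 0.25 for Cspp1, where the median candidate stood at 0.82. Relch, which encodes a Rab11-binding protein of recycling endosomes, measured 22.6 to 32.2 CPM in MIZ1KO and 46.6 to 93.7 CPM in Control. Its separation of the groups and its peak in Control replicate 3 come with the choice by likeness to Atg16l1. Of the other members, Atg7 came closest, at 0.58, and Gabarap was the least alike, at 1.05. Atg7 and Atg10 averaged under 10 CPM and so were not among the candidates behind that median.

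The libraries held 6896643 to 9482418 counts, and 3087979 to 5084984 outside ribosomal RNA. For Zbtb17 the mean ± SD was 4.45 ± 0.732 CPM (MIZ1KO, n = 3) and 4.18 ± 1.89 CPM (Control, n = 4), and since counts cover the whole gene, this does not check a partial deletion. All 10 markers of B cells and germinal centres were measured, with a summed level of 6547 to 6887 CPM outside ribosomal RNA in MIZ1KO and 5938 to 6212 in Control. The 8 T cell markers summed to 136 to 149 and 93.4 to 120, mostly Cd2 and Lck; Cd3e had 6, 31 and 52 counts in MIZ1KO and at most 4 in Control. Neither sum overlapped (exact permutation p = 0.0286 for each, the smallest that 35 splits allow, two-sided; adjusted p = 0.160 over 14 library quantities). Of the 10 myeloid markers C1qa had no counts, and their sums overlapped, at 15.9 to 58.4 and 16.4 to 27.8, as did those of red cells and platelets, at 116 to 886 and 236 to 827. The part of the B cell and T cell sums in the results was not tested.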

How the data were processed

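The authors deposited an estimated count per gene (expected counts) for each of 7 libraries, without normalization. STAR 2.5.2, RSEM 1.3.0 and GRCm38 are named, without roles, per the submitters' processing notes; the sources used here do not give the strand setting. The authors also deposited log2 values, called vsd in the table's name, the usual short form for variance-stabilised data; DESeq2 1.18.1 is among the tools named, and the function and its settings are not stated. Columns were matched to samples by the library code in the labels.

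Counts were rounded, filtered with filterByExpr, scaled by TMM and tested by edgeR 4.0.16 with its quasi-likelihood method (the newer fit, robust, two-sided, Benjamini-Hochberg over 11618 genes), MIZ1KO (n = 3) against Control (n = 4). The method was tested on simulated data. A prior count of 2 was used for log2 CPM. Levels per length used the union of exons in GENCODE vM21. Intervals are 95%. The alternatives were other scalings, filters and gene sets, the earlier edgeR fit, a replicate block, the TEC share as a covariate, DESeq2 1.42.0, limma-voom (limma 3.58.1), limma on the deposited log2 values, and leaving out each library. No 2 libraries of a group agreed within sampling noise.

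All members were named, with the 2 genes of lowest p per further autophagy list and the 5 genes most like Atg16l1; Fundc1 and Ambra1 were named after their values were seen. The members and lists were chosen with earlier results of these data known.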

Additional observations from a re-analysis of the deposited data

Results flagged for a closer look

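In the Control group of 4, Control replicate 3 stood apart in the ratio of Atg16l1 to Atg5 per length, at 1.18 where the other 3 lay between 0.256 and 0.335. Atg4d, an ATG4 protease, stood apart in Control replicate 2, at 8.40 CPM where the other 3 lay between 6.82 and 6.96 CPM. These were the 2 extreme values found among 46 quantities checked by Dixon's rule, and chance alone flags about 1 in 20.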

How the results depend on the processing

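Over all genes, 692 were called, 221 higher and 471 lower in MIZ1KO. Counts among protein-coding genes fitted alone were 315 (140 higher, 175 lower), with the TEC share as a covariate 296 (47 and 249), in DESeq2 1067 (415 higher) and in limma-voom 342 (127 and 215). Leaving out 1 library gave 39 to 1356 calls, 22 to 527 higher and 17 to 829 lower: 39 without MIZ1KO replicate 1, 317 without MIZ1KO replicate 3, 1356 without Control replicate 1, 205, 428 and 142 without Control replicates 2, 3 and 4. Without MIZ1KO replicate 2 the lower calls were 194 and the higher 298.

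Of the 10 members, 1 was called; 0 were with the TEC share as a covariate and in limma-voom, and 0 or 1 with 1 library left out. Of the further autophagy genes, 0 were called, but 1 with the TEC share (Fundc1), and 0 to 4 with 1 library left out: Rubcn without MIZ1KO replicate 2, and Atg16l2, Uvrag, Ambra1 and Sqstm1 without Control replicate 1. Calls were both lost and gained when a library was left out, and the cause was not tested.

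With the replicate number as a block, the higher calls were 131, and Atg16l1 measured -1.51 and was called. Deviations of same-numbered libraries correlated at -0.01, 0.20 and 0.36, and those of the other pairs at -0.37 to 0.33. These values do not settle whether the numbers pair the libraries. The summed ATG8 level per that of Atg12, Atg5 and Atg16l1 was 4.45 in Control and moved by less than its spread in every alternative. Counts of 4 to 35 limit Atg10.

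Log2 fold changes that turned sign belonged to genes not called. With the TEC share they were -0.64 for Gabarap, -0.027 for Atg4d, 0.49 for Atg16l2, 1.29 for Tecpr1, 0.30 for Rb1cc1 and -0.46 for Sqstm1. With the block they were -0.04 for Atg4d and 0.33 for Tecpr1. Atg4d was -0.004 among protein-coding genes and -0.078 in limma-voom, and Tecpr1 0.014 on the deposited log2 values. With 1 library left out, the values that turned in some of these fits ran from -0.28 to 0.15 for Atg12, -0.46 to 0.14 for Atg3, -0.96 to 0.20 for Atg10, -0.54 to 0.026 for Gabarapl2, -0.25 to 0.41 for Atg4d and -0.36 to 0.35 for Tecpr1.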
